A study of Mus musculus with 25 samples.

Results

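The arrays compared here were those of muscle injured by freezing and of muscle injured by contraction, each taken 3 days later. They were chosen by their titles and made up 6 of the 25 arrays of the study: 3 of freeze at 3 days (samples 436, 450 and 468) and 3 of contraction at 3 days (samples 435, 449 and 467). Probe sets with 1 gene symbol were considered, 10855 of 12488 on the array, and 8488 of them passed the filter for testing. The mice were C57BL/6J females aged 2 to 3 months and the muscle was the tibialis anterior, with no transgene, deletion or drug named for any group. One injury was 150 eccentric contractions in the living animal, each a stretch of the muscle while it is active. The other was made with a steel probe 6 mm across, chilled with dry ice and held on the muscle for 10 seconds. Another group of 3 uninjured muscles (samples 1, 2 and 3) served as control, and arrays at 1 day and 7 days after either injury are used at the end. Whole muscle was measured, so a lower signal of a gene can come from fewer cells of a type or from less RNA per cell, and these cannot be told apart. The labels do not say whether any of the muscles came from the same mouse. The p-values rest on the spread within groups, pooled over 24 arrays of all 9 groups of the study, which may in part be technical. Those groups include muscles taken 6 hours after either injury, which are not otherwise used here.

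After injury a muscle fibre that dies is cleared by phagocytes, above all macrophages that come in from the blood, and is rebuilt by satellite cells, the stem cells of muscle. These divide, turn on the myogenic regulators and fuse into new fibres that pass through an embryonic stage of contractile proteins. Fibres that survive a stretch injury answer with heat shock proteins, which refold or sort damaged proteins, and with proteins of the sarcomere and its anchors that respond to strain.

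Sample 436 carries the label of freeze at 3 days but its signals lay with the uninjured muscles. Across probe sets its log2 signals correlated at r = 0.947 to 0.952 with the 3 controls and at 0.800 to 0.802 with samples 450 and 468. Those 2 arrays correlated at 0.976. It was left out of the main reading because of these expression values, and not because of any label. The differences below therefore rest on 2 freeze arrays against 3 contraction arrays, and counts of calls with sample 436 are given for the gene lists. The contraction arrays correlated at 0.949 to 0.965 among themselves and at 0.909 to 0.938 with samples 450 and 468. The actin 3'/5' ratio, a sign of RNA integrity, was 1.06 and 1.09 on samples 450 and 468, 0.741 on sample 436, 0.923 to 1.21 on the contraction arrays and 0.560 to 0.595 on the controls. That of Gapdh was 0.902 and 0.878 on samples 450 and 468 and 0.923 to 1.12 after contraction. The part of these ratios in the differences was not tested. Markers of fast muscle were high in the controls: Tnnt3, fast troponin T, read 13777, 18109 and 15785, and Pvalb, the calcium buffer parvalbumin of fast fibres, read 16859, 18749 and 25063.

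Freeze and contraction differed at 3 days in 1288 of 6919 genes tested, 18.6% of them, with 669 higher and 619 lower after freeze (limma, adjusted p under 0.05). By probe set the count was 1611 of 9506, and 2800 had an unadjusted p under 0.05. Both freeze arrays lay above all 3 contraction arrays in 25.2% of genes and below them in 25% of genes. Against control, 44.9% of genes were called after freeze (22.7% higher and 22.2% lower) and 24.4% after contraction (13.7% higher and 10.7% lower). Of the 669 higher genes, 354 were above control after both injuries, and 280 were above control after freeze and not called after contraction. Of the 619 lower genes, 273 were below control after both injuries and 270 were below control after freeze with no call after contraction. Only 31 of the lower genes were above control after contraction and not called after freeze, and 6 were above control after contraction and below it after freeze. With sample 436 in the group, 31 genes were called (0.448% of those tested), 4 higher (0.0578%) and 27 lower (0.39%) after freeze. The unadjusted p was under 0.05 for 751 of the 9506 probe sets in that reading. All 31 were among the 1288 and had the same sign, and 1238 of the 1288 kept their sign. The number of probe sets called was 743 without sample 450, 811 without sample 468, and 1793, 1109 and 1255 without samples 435, 449 and 467.

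**Figure D1:**
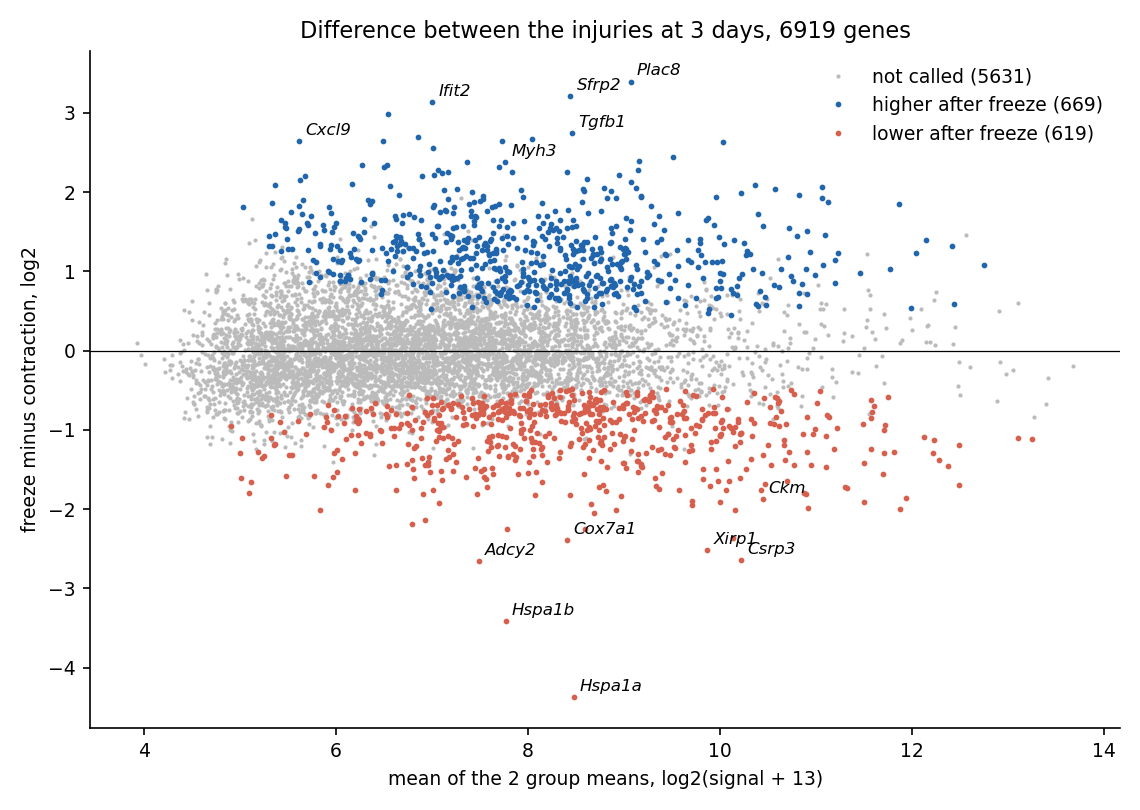
Difference between the injuries at 3 days (vertical axis, log2 of signal plus 13, freeze samples 450 and 468 minus the 3 contraction arrays) against the mean level of the gene in both groups (horizontal axis, log2 of signal plus 13). Each point is 1 of 6919 genes; 669 were called higher after freeze (blue), 619 lower (red) and the rest were not called (grey).

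Differences are given below as freeze minus contraction on the log2(signal + 13) scale ± SE, so that a negative value is lower after freeze. This scale understates the change of dim genes. Signals are given in the order of sample numbers, for 2 freeze, 3 contraction and 3 control arrays, with sample 436 apart. Each count of calls on a list stands beside shares over all genes tested of 9.67% higher and 8.95% lower after freeze. Unless a sentence says otherwise, a gene named with its own difference as higher or lower kept its call when each of the 5 arrays was left out in turn. With sample 436 added, 18 of the 91 called genes that are given with a value in the text kept their call, and the other 73 lost it. Those that kept it were Hspa1a, Hspa1b, Cryab, Hspb8, Csrp3, Xirp1, Ankrd1, Ankrd2, Rcan1, Rgcc, Cacng1, Myf6, Myh7, Odc1, Gpx3, Creg1, Pla2g7 and Smpdl3a. A gene with several probe sets is read by the brightest. For a gene given with its own value, another probe set that goes the other way or differs in its call is named beside it. This was not done for genes named without a value. Of those, Actn1, Tnnt1, Vcam1, Rps29, Flt1, Tie1, Tpm2 and Pdlim7, among others, were called on only part of their probe sets. The probe sets of Pdlim7 ranged from -0.86 to 1.20 and those of Flt1 from -0.70 to 0.25.

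The largest difference of all genes was that of Hspa1a, a heat-inducible member of the 70 kDa heat shock proteins. Its signal was 73.8 and 57.8 on the freeze arrays and 104 on sample 436, 683, 1763 and 3453 on the contraction arrays and 112, 45.2 and 80.2 in controls. The 3 contraction arrays thus spanned a wide range, all of it far above every freeze and control array. The difference was -4.37 ± 0.60 (adjusted p = 3.19e-05), and -4.18 with sample 436 (adjusted p = 0.000519). Hspa1b, its neighbouring copy on the same chromosome, read 49.9 and 58.3 after freeze, 207, 1037 and 1552 after contraction and 36.4, 41.1 and 14.5 in controls. Its difference was -3.41 ± 0.73 (adjusted p = 0.00207). The genes are near-identical copies, so their probe sets may share signal and the split between them is uncertain. The 150 bases upstream of their start sites, shown because both hold the same core of a heat shock element, were identical at 149 of 150 positions. They are from RefSeq on build GRCm38.p6, both on the minus strand and directly before the annotated start, with the element in capitals:
Hspa1a, chr17:34972157-34972306: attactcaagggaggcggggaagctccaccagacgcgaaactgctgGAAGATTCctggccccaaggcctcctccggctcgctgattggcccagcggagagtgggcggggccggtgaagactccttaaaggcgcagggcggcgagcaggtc
Hspa1b, chr17:34959239-34959388: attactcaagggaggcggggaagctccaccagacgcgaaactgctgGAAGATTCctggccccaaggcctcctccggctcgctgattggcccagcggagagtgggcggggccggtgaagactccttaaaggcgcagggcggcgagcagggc
The element searched was GAANNTTC, which reads the same on both strands, and it starts 104 bases before each start site. In the 250 bases before the start it was present in 7.73% of all 27025 genes of the promoter table, in 6.16% of the tested genes with a promoter, in 5.72% of those lower after freeze, and in 7 of 25 heat shock list genes. A match describes the letters of the window and not a bound site.

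Of 30 tested genes on the list of heat shock proteins and chaperones, 8 were lower after freeze and 1, Cct5, was higher, with a median difference of -0.34 against -0.02 over all genes tested. Of all genes tested 8.95% were lower and 9.67% higher. Without sample 450 there were 5 lower, and 1 was higher without sample 467 and none without any 1 of the other 4 arrays. With sample 436 in the group 4 were lower and none higher, where 0.39% of all genes were lower. Cryab, the small heat shock protein alpha-B crystallin that binds desmin and actin filaments, read 628 and 495 after freeze, 1998, 2343 and 2582 after contraction and 1115, 1122 and 514 in controls, a difference of -2.02 ± 0.26 (adjusted p = 2.12e-05). Another Cryab probe set, near the floor of the array, differed by -0.05 and was not called. Hspb8, a small heat shock protein of the chaperone complex that clears damaged filamin, read 1847 and 2268 after freeze and 8078, 5437 and 9587 after contraction. Controls read 2768, 2503 and 2652, so the freeze arrays stood slightly under the controls and the contraction arrays far over them. The difference was -1.87 ± 0.25 (adjusted p = 3.19e-05). For the list as a whole, the summed signal was 18062 and 18567 on the freeze arrays, 27503 to 37479 after contraction and 16734 to 18063 in controls, and 21278 on sample 436.

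Part of the genes whose proteins answer to strain of the sarcomere or mend the membrane were lower after freeze. Of 22 tested, 11 were lower, 2 higher and 9 not called, with a median of -0.72. With sample 436 it was 6 lower and none higher. Some of these genes were counted on other lists too, such as Cryab and Bag3 with the heat shock genes. Csrp3 was also on the slow fibre list and Ankrd2 on that of myogenic regulators, both given below. The 2 higher were Actn1 and Anxa5, a non-muscle actinin and an annexin that binds exposed membrane. Without any 1 of samples 449, 467, 450 or 468 only 1 was higher, and without 435 there were 4. Csrp3, the muscle LIM protein of the Z disc, read 522 and 412 after freeze, 504 on sample 436, 2441, 3880.4 and 2776 after contraction and 764, 422 and 384 in controls. The freeze arrays lay among the controls, while every contraction array was far above the highest control. The difference was -2.65 ± 0.33 (adjusted p = 1.59e-05). Xirp1, which encodes the actin-binding repeat protein Xin of damaged and growing sarcomeres, read 423 and 337 after freeze, 1795, 2762 and 2217 after contraction and 1149, 782 and 764 in controls. Here the groups parted in opposite directions from control, by -1.20 ± 0.21 after freeze (adjusted p = 7.77e-05) and 1.32 ± 0.19 after contraction (adjusted p = 2.19e-05), against the same 3 controls. Sample 436 read 1162, and with it the freeze difference from control was -0.67 and not called (limma, adjusted p = 0.136). Its difference between the injuries was -2.52 ± 0.21 (adjusted p = 1.48e-07).

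The ankyrin repeat proteins Ankrd1 and Ankrd2, which sit on titin in the I band and respond to stretch, differed in their relation to control. Ankrd1 read 961 and 955 after freeze, 276 on sample 436, 4167, 2540.5 and 5304 after contraction and 92.5, 170.2 and 109 in controls. It was thus above control after both injuries and highest after contraction, with a difference of -1.98 ± 0.24 (adjusted p = 1.4e-05). Ankrd2 read 449.5 and 525 after freeze, 2126, 2023 and 3840.2 after contraction and 1319, 480.4 and 430.4 in controls, a difference of -2.36 ± 0.41 (adjusted p = 0.00036). Rcan1, an inhibitor of the phosphatase calcineurin, read 193 and 278 after freeze, 652, 1067 and 795 after contraction and 382, 379.8 and 356 in controls, a difference of -1.77 ± 0.22 (adjusted p = 1.57e-05). Rgcc, a regulator of the cell cycle, differed by -2.25 ± 0.33 (adjusted p = 6.04e-05), with 173 and 156 after freeze and 476, 1253 and 966 after contraction. Adcy2, an adenylate cyclase, fell to 30.3 and 105 after freeze, against 528, 352 and 453 after contraction and 229, 264 and 518 in controls. Its contraction arrays overlapped the controls, and sample 436 read 486. Clip4, a protein of the microtubule-binding CLIP family, read 81.5 and 96 after freeze, 396, 559.9 and 464 after contraction and 442, 578 and 545 in controls and its contraction arrays also overlapped the controls. Krt18, a keratin of simple epithelia, read 41.7 and 36.1 after freeze and 311, 52.3 and 612 after contraction, so 1 contraction array was close to the freeze level. Its difference of -2.19 ± 0.64 (adjusted p = 0.0203) was lost without any 1 of samples 435, 467, 450 or 468.

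**Figure D2:**
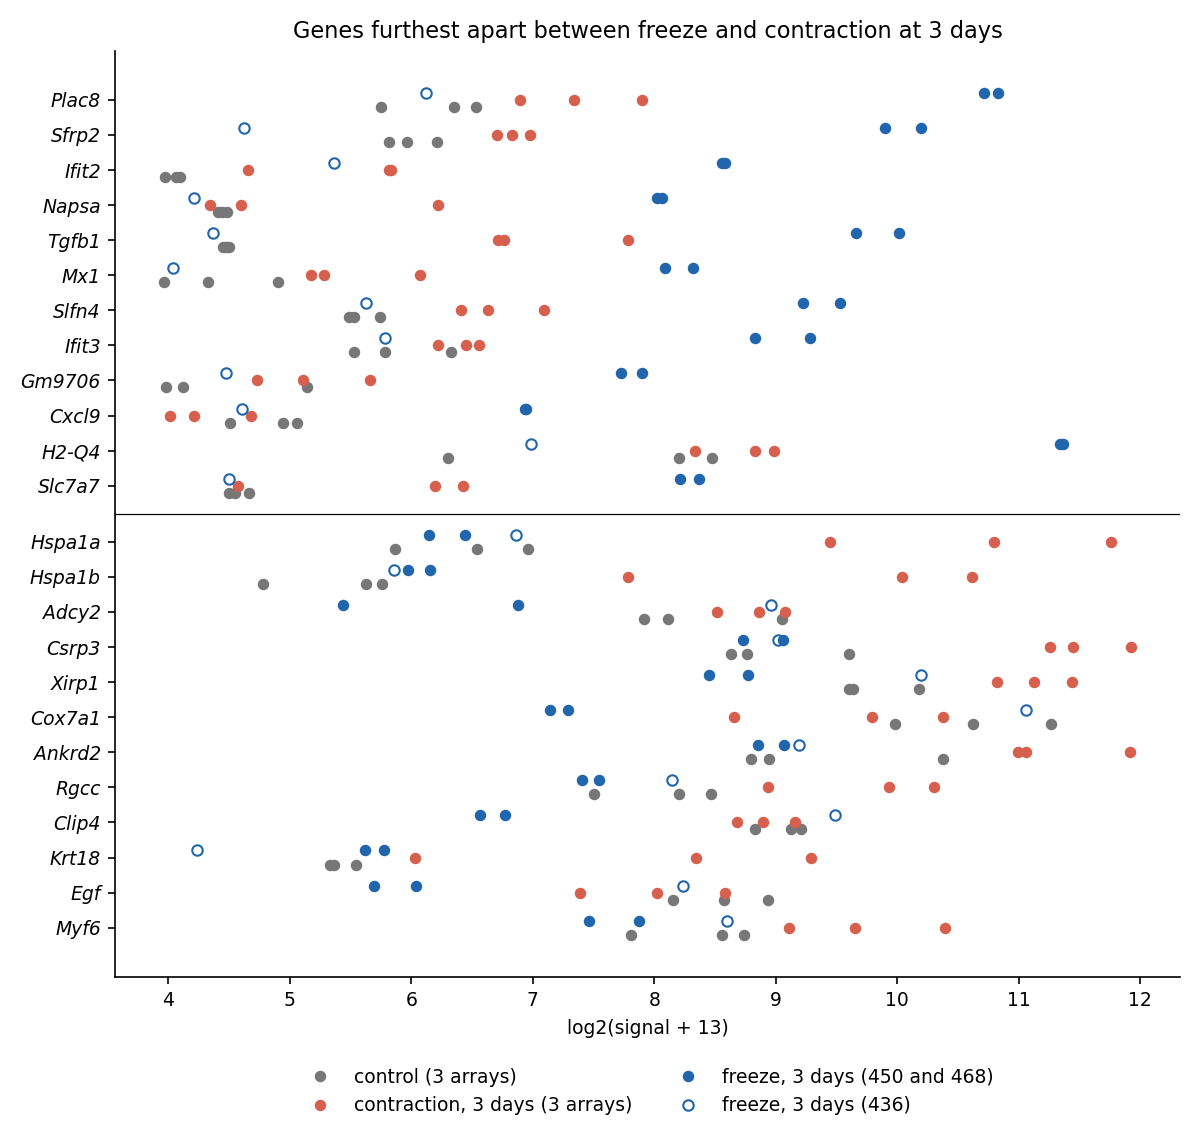
Signal of each array (horizontal axis, log2 of signal plus 13) for the 12 genes most raised (upper rows) and the 12 most lowered (lower rows) after freeze against contraction at 3 days, among those called, at least 2-fold different and with both freeze arrays beyond all 3 contraction arrays. Filled blue points are freeze samples 450 and 468, red points contraction, grey points uninjured muscle, and the open blue point is sample 436, which sits near the grey points in most rows.

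Macrophage genes were higher after freeze than after contraction, and far above control after both. Of 35 tested macrophage and phagocyte markers, 25 were higher and none lower, with a median of 1.46; with sample 436 none was called and the median was 0.05. Both freeze arrays lay above all 3 contraction arrays for 32 of the 35. Cd68, a glycoprotein of macrophage lysosomes, read 2449.7 and 2445 after freeze, 910.4, 633 and 685 after contraction and 71.5, 35.2 and 73.3 in controls, with 63.7 on sample 436. The 2 freeze arrays nearly coincided, and the 3 contraction arrays formed a separate level between them and the controls. The difference was 1.72 ± 0.24 (adjusted p = 3.44e-05; 0.052 and adjusted p = 0.994 with sample 436). Fcgr1, the high-affinity receptor for IgG, read 1209 and 1260.0 after freeze and 319, 179 and 256 after contraction, a difference of 2.28 ± 0.26 (adjusted p = 5.89e-06; 0.75 and adjusted p = 0.867 with sample 436). Aif1, an actin-bundling protein of activated macrophages, read 513 and 394 after freeze, 111, 51.2 and 89.1 after contraction and 7.0, 7.3 and 6.6 in controls. Csf1r, the receptor for the growth factor that macrophages depend on, read 1771 and 1879 after freeze and 1036, 529.7 and 589.7 after contraction, a difference of 1.39 ± 0.28 that became -0.28 and lost its call with sample 436. A dimmer Csf1r probe set differed by -0.14 and was not called.

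Other markers of these cells differed less between the injuries. Against control, 34 of the 35 markers were called higher after freeze and 33 after contraction. Lgals3, galectin 3, read 2779 and 2727 after freeze and 1350.5, 1540.2 and 1779.6 after contraction, a difference of 0.83 ± 0.32 that was not called (adjusted p = 0.084). Mrc1, the mannose receptor of repair-stage macrophages, read 369.7 and 313 after freeze and 223, 185 and 217 after contraction (0.68 ± 0.24, adjusted p = 0.0566). Arg1, arginase 1, read 58.5 and 62.2 after freeze and 46.5, 44.2 and 19.5 after contraction (0.61 ± 0.35, adjusted p = 0.264). With sample 436 the differences of these 3 genes turned to -1.44, -0.74 and -0.064. The summed signal of the whole macrophage list was 56783 and 61039 on the freeze arrays, 16444 to 28731 after contraction, 1561 to 2173 in controls and 1165 on sample 436. These sums moved in the same order as the interferon, complement, antigen presentation, chemokine, lysosome and actin genes described next, and their part in those differences was not tested.

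Interferon-induced genes had the highest median of the 40 lists. Of 29 tested, 25 were higher after freeze and none lower, with a median of 1.76, and both freeze arrays lay above all contraction arrays for all 29. With sample 436 none was called and the median was 0.62. All 29 were above control after freeze and 12 were after contraction, against the same controls, where 22.7% and 13.7% of all genes were. Ifit2, an interferon-induced protein with tetratricopeptide repeats, read 364 and 369 after freeze, 28.3 on sample 436, 43.9, 12.2 and 43.5 after contraction and 3.7, 2.7 and 4.1 in controls. The control signals were at the dim end of the array, and sample 449 was the contraction array nearest to them. The difference was 3.13 ± 0.39 (adjusted p = 1.59e-05; 2.07 and adjusted p = 0.174 with sample 436). Mx1, a dynamin-like antiviral GTPase, read 259.8 and 305 after freeze and 54.3, 23.1 and 25.9 after contraction, a difference of 2.69 ± 0.40 (adjusted p = 7.39e-05; 1.30 and adjusted p = 0.694 with sample 436). Isg15, a ubiquitin-like modifier, read 1081 and 1149 after freeze, 319, 199 and 232 after contraction and 124, 114 and 51.2 in controls, a difference of 2.13 ± 0.33 (adjusted p = 0.00012; 0.94 and adjusted p = 0.784 with sample 436). Usp18, the protease that removes that modifier, differed by 2.22 ± 0.37 (adjusted p = 0.000201).

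Ifit1 and Ifit3 are relatives of Ifit2. Ifit3 read 611 and 442 after freeze, 81, 74.3 and 61.5 after contraction and 33.1, 67.3 and 42.1 in controls, so that the contraction arrays lay close to the controls. Its difference was 2.65 ± 0.41 (adjusted p = 0.000113). Ifit1 read 296 and 277 after freeze and 59.2, 54.8 and 39.1 after contraction, a difference of 2.24 ± 0.34 (adjusted p = 8.83e-05). Slfn4, a Schlafen family gene of myeloid cells, read 585 and 726 after freeze and 124, 72.1 and 86.1 after contraction, a difference of 2.67 ± 0.52 (adjusted p = 0.00106). H2-Q4, a class I antigen of the Q region whose probes may also read related class I genes, read 2577 and 2617 after freeze, 442, 311 and 495 after contraction and 281, 343 and 66 in controls. Irf7, a transcription factor of the interferon response, was split between its 2 probe sets. The brighter one read 164 and 164 after freeze and 95.8, 119 and 93.9 after contraction and was not called (0.62 ± 0.32, adjusted p = 0.204), while the other was called higher, at 2.59. At the low end of the list, Irgm1, an interferon-induced GTPase, differed by 0.58 ± 0.36 (adjusted p = 0.312). The 150 bases upstream of 3 of these genes are given because they hold an interferon response element, searched as GAAA, any 2 bases and GAAA again on either strand and shown in capitals (RefSeq, GRCm38.p6; Isg15 on the minus strand, the others on the plus strand):
Isg15, chr4:156200819-156200968: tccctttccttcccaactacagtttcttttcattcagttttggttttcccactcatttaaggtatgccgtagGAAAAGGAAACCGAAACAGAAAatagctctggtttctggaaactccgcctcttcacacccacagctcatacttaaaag
Ifit1, chr19:34640739-34640888: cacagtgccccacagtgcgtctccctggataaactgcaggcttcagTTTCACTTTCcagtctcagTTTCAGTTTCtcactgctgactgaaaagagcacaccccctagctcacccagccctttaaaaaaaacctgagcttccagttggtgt
Ifit3, chr19:34583379-34583528: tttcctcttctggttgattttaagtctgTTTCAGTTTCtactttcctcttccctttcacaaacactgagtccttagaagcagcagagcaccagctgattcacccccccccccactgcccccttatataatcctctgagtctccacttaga
In Isg15 the stretch in capitals holds 3 overlapping matches. The element was present in the 250 bases upstream of 9 of 23 interferon list genes with a promoter in the table, the others being Gbp2, Gbp3, Igtp, Irgm1, Irgm2 and Rsad2. It was present in 6.40% of genes higher after freeze, 1.38% of those lower, 3.27% of those tested and 3.46% of all in the table. Ifit2 and Slfn4 were not among the 9 list genes with a match. A list gene outside these 9 either lacked the letters in the window or had no promoter in the table.

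Complement, antigen presentation and chemokine genes were higher after freeze in part. Of 12 tested complement genes 8 were higher and none lower (median 1.09; 5 without sample 450). Among the 8, C1qa, C1qb, C1qc and Itgam were also counted with the macrophage markers. C1qb, a chain of the first complement component, read 3648 and 3503 after freeze, 1398, 628 and 851 after contraction and 34.7, 55.9 and 39.8 in controls. Its difference was 1.96 ± 0.40 (adjusted p = 0.00148) and -0.42 with sample 436. A dimmer C1qb probe set differed by -0.90, in the other direction, and was not called (adjusted p = 0.0539). Of 13 tested MHC class II genes 4 were higher, Cd74, H2-Eb1, Ctss and H2-DMa (median 0.98), with 2 or 1 of them left without any 1 of samples 449, 467, 450 or 468. Ctss was also counted with the macrophage markers. H2-DMa, which loads peptides on class II molecules, read 633 and 605 after freeze and 308, 179 and 224 after contraction, a difference of 1.37 ± 0.30 (adjusted p = 0.00283); its dimmer probe set differed by 0.34 and was not called. Of 34 tested chemokines, interleukins and receptors 12 were higher and 1 lower (median 0.88), with 7 higher without sample 449 or 467, 6 without 450 and 5 without 468. With sample 436 no gene of these 3 lists was called.

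Of the chemokines that attract T cells, 2 were called against contraction but not above control after contraction. Cxcl9, a target of interferon gamma, read 109.7 and 110.3 after freeze, 5.5, 3.2 and 12.6 after contraction and 20.3, 17.7 and 9.8 in controls. Its difference was 2.64 ± 0.39 (adjusted p = 7.06e-05; 1.86 and adjusted p = 0.114 with sample 436). Ccl5 read 66.9 and 77.7 after freeze, 7.9, 7.7 and 5.4 after contraction and 7.8, 9.1 and 10.2 in controls, a difference of 2.09 ± 0.30 (adjusted p = 6.04e-05). The signals of both were dim in the contraction and control arrays, which overlapped. Il10ra, a chain of the interleukin 10 receptor, read 179 and 213 after freeze and 53.6, 28.1 and 12.6 after contraction, a difference of 2.34 ± 0.36 (adjusted p = 0.000114). Ccl2, which draws monocytes, was above control after both injuries and read 723 and 572 after freeze and 441, 208 and 229 after contraction (1.18 ± 0.46, adjusted p = 0.0814; -0.55 with sample 436). Cx3cl1, a membrane-bound chemokine, was the 1 lower gene, with 88.1 and 88.9 after freeze and 201, 138 and 162 after contraction (-0.81 ± 0.19, adjusted p = 0.00458, not called without sample 450 or on its dimmer probe set, at -0.28).

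Lysosomal genes were higher in 24 of 33 tested, none lower, with a median of 1.07 (14 without sample 450, 15 without 468, none with 436). Ctsh, a cathepsin, read 1242 and 1032 after freeze, 299, 236 and 255 after contraction and 25, 64.1 and 33.1 in controls, a difference of 2.06 ± 0.39 (adjusted p = 0.000692; 0.12 and adjusted p = 0.987 with sample 436). Npc2, which carries cholesterol out of the lysosome, read 1887 and 1983 after freeze, 732, 361 and 457 after contraction and 243, 242 and 194 in controls, a difference of 1.94 ± 0.22 (adjusted p = 6.49e-06). Its contraction arrays lay nearer to the controls than to the freeze arrays. Ctsb, the abundant cathepsin B, differed less, by 1.07 ± 0.22 (adjusted p = 0.00164), with 9281 and 10799 after freeze and 6777, 3567 and 4429.6 after contraction. Of its other probe sets 2 were called higher and 1, near the floor, differed by -0.06. Man2b1, lysosomal alpha-mannosidase, differed by 1.94 ± 0.30 on the probe set used, but its other probe set was called lower, at -0.98. The actin cytoskeleton of motile cells was higher in 20 of 31 genes, none lower, with a median of 0.98 (13 without sample 449, 9 without 450, 10 without 468, none with 436). Marcksl1, an actin-regulating protein of the membrane, read 338 and 364 after freeze, 112, 69.1 and 68.1 after contraction and 60.3, 55.3 and 90.7 in controls, a difference of 1.95 ± 0.30 (adjusted p = 0.000114). Its contraction arrays overlapped the controls.

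Other genes most raised after freeze were on none of the lists. Plac8, a small cysteine-rich protein of myeloid and other cells, read 1665 and 1809 after freeze, 56.6 on sample 436, 226, 106 and 149 after contraction and 79.5, 40.9 and 68.7 in controls. Its difference of 3.40 ± 0.31 (adjusted p = 3.94e-07; 1.84 and adjusted p = 0.461 with sample 436) was the largest upward. Napsa, the aspartic protease napsin A, read 255 and 247 after freeze and 61.6, 11.2 and 7.3 after contraction, with 8.2, 9.4 and 8.7 in controls, so sample 435 was the contraction array furthest above them. Slc7a7, an amino acid transporter chain, read 317 and 283 after freeze and 73.2, 10.8 and 60.3 after contraction. The predicted gene Gm9706 read 199 and 226 after freeze and 37.5, 13.5 and 21.5 after contraction. The differences of these 3 genes were 2.99 ± 0.44, 2.56 ± 0.46 and 2.65 ± 0.39, and 1.71, 1.29 and 1.54 with sample 436.

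**Figure D3:**
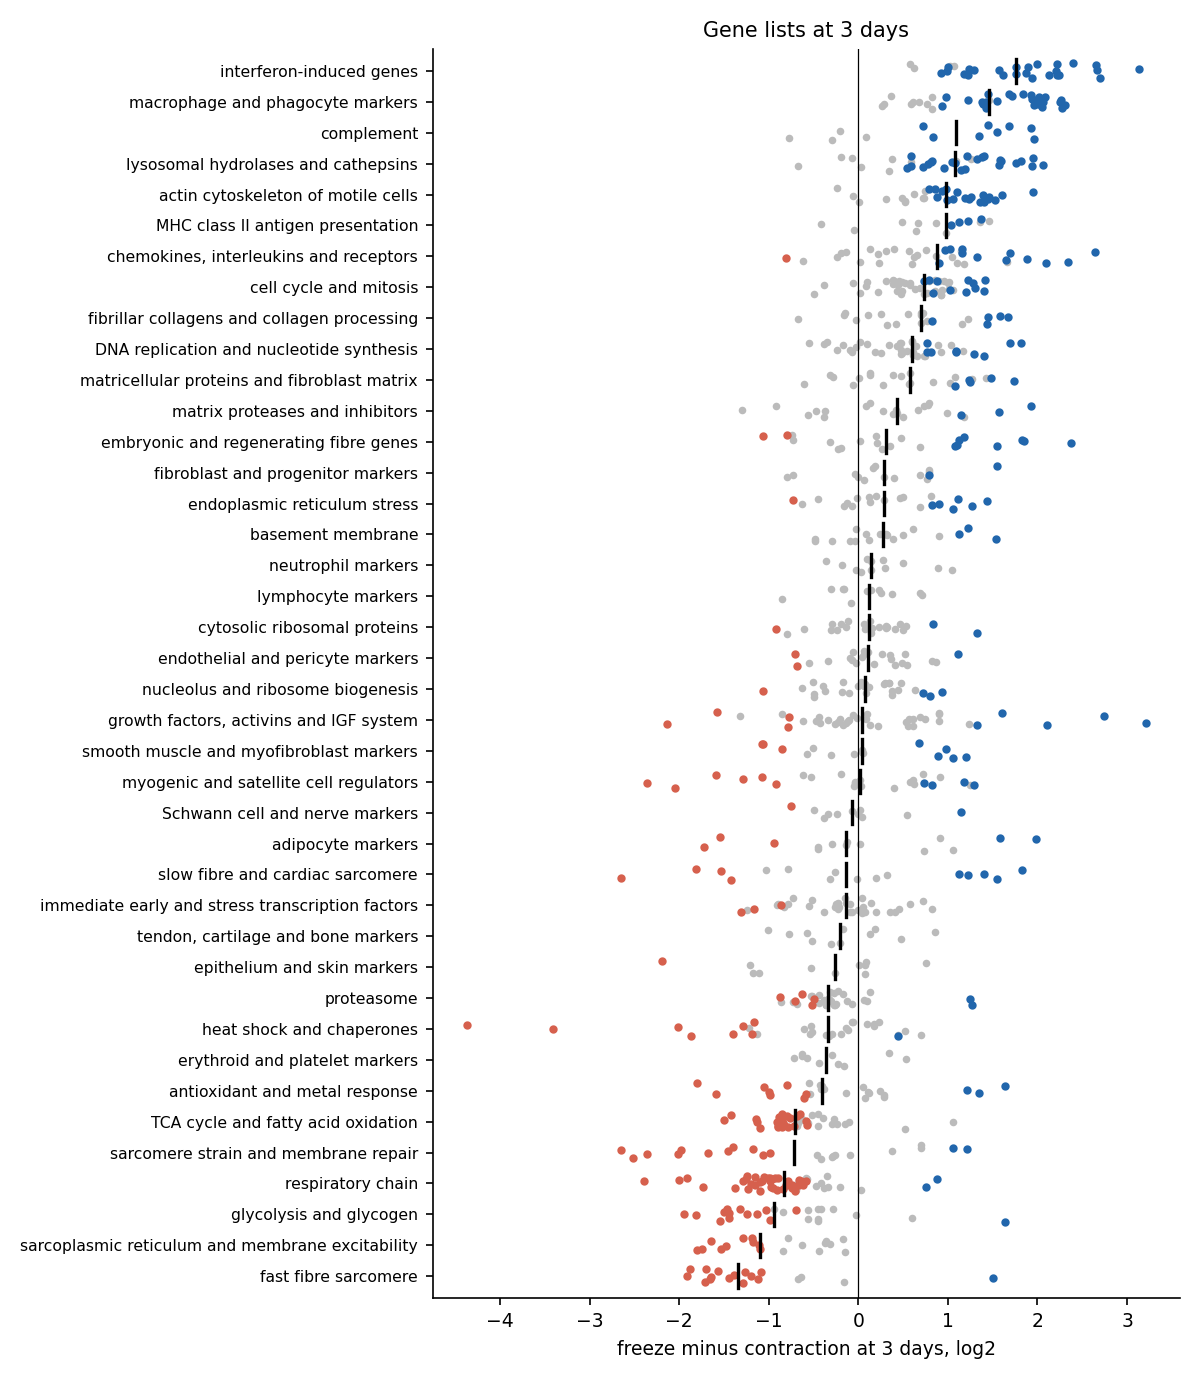
Difference between the injuries at 3 days (horizontal axis, log2, freeze samples 450 and 468 minus contraction) for the tested genes of each of 40 lists, ordered by the list's median (black bar). Blue and red points are genes called higher and lower after freeze, grey points were not called; the medians run from 1.76 for interferon-induced genes to -1.34 for fast fibre sarcomere genes.

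Genes of the mature fast fibre were lower after freeze than after contraction. Of 18 tested fast sarcomere genes 14 were lower and 1 higher, with a median of -1.34; with sample 436 none was called and the median was -0.52. The list's summed signal was 36421 and 46184 on the freeze arrays, 84206 to 108039 after contraction and 130541 to 206340 in controls. Tnnc2, fast troponin C, read 1582 and 1401 after freeze, 15042 on sample 436, 5128, 5386 and 6522 after contraction and 6988, 8963 and 12569 in controls. The difference was -1.91 ± 0.29 (adjusted p = 9.03e-05; -0.81 and adjusted p = 0.819 with sample 436). Ckm, muscle creatine kinase, read 699.5 and 730.5 after freeze, 2258, 3513 and 2382 after contraction and 5318, 6651 and 5764 in controls, a difference of -1.88 ± 0.21 (adjusted p = 5.89e-06; -0.69 and adjusted p = 0.842 with sample 436). In both genes, on these probe sets, the 3 groups formed separate levels, with freeze lowest. A much dimmer Ckm probe set differed by 0.32, in the other direction, and was not called. Tnnt3 read 3089 and 3317 after freeze and 8559.5, 10392 and 12671 after contraction, a difference of -1.70 ± 0.22 (adjusted p = 2.35e-05), and Pvalb differed by -1.20 ± 0.27 (adjusted p = 0.00306).

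The groups overlapped for 3 genes of this list, among them Acta1 and Myh4. Acta1, skeletal alpha-actin, read 7191 and 10199 after freeze and 14793, 9700.3 and 17852 after contraction (-0.68 ± 0.35, adjusted p = 0.199). Myh4, the fastest myosin heavy chain, read 4498 and 8197 after freeze and 7556, 8671 and 13014 after contraction (-0.64 ± 0.35, adjusted p = 0.232; 0.077 with sample 436). Tpm1, alpha-tropomyosin, which non-muscle cells also make, was the 1 gene of the list that was higher, with 556 and 500.1 after freeze, 201, 182 and 152 after contraction and 134, 157 and 122 in controls (1.51 ± 0.20, adjusted p = 2.12e-05).

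Genes of the sarcoplasmic reticulum and the excitable membrane were lower in part. Of 19 tested genes 10 were lower and none higher, with a median of -1.10, and 1, Cacng1, was called with sample 436. Ryr1, the calcium release channel, read 846 and 1168 after freeze, 2755, 4311 and 3569 after contraction and 5448, 7113 and 8989 in controls, a difference of -1.80 ± 0.23 (adjusted p = 1.7e-05). Cacna1s, the voltage sensor that opens it, read 320.1 and 376 after freeze and 941, 1395 and 1295 after contraction, a difference of -1.74 ± 0.21 (adjusted p = 1.3e-05). Cacng1, an accessory chain of that sensor, had another pattern, with 612 and 602 after freeze, 1178 on sample 436, 1751, 1593 and 2561 after contraction and 808, 1212 and 692 in controls. It was above control after contraction by 1.12 ± 0.20 (adjusted p = 0.000285), while Ryr1 and Cacna1s differed from control by -1.01 ± 0.20 and -0.90 ± 0.19 (adjusted p = 0.000768 and 0.00115). The difference of Cacng1 between the injuries was -1.64 ± 0.23 (adjusted p = 3.46e-05; -1.33 and adjusted p = 0.0193 with sample 436).

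Many genes of energy metabolism were lower after freeze. Of 25 tested genes of glycolysis and glycogen 13 were lower and 1, Pgam1, higher (median -0.94; 4 lower without sample 450). Of 42 tested TCA cycle and fatty acid oxidation genes 25 were lower and none higher (median -0.71; 12 without sample 449, 7 without 450, 12 without 468). Of 52 tested genes of the respiratory chain 37 were lower and 2, Cox6a1 and Slc25a5, higher (median -0.83; 22 lower without sample 449, 22 without 450 and 15 without 468; 1 higher without 435 and none without any 1 of the other 4). With sample 436 no gene of these lists was called. Hk2, the hexokinase of insulin-sensitive muscle, read 379 and 455 after freeze, 1750.4, 1565 and 1605 after contraction and 1922, 2582 and 3083 in controls, a difference of -1.95 ± 0.20 (adjusted p = 2.82e-06; -0.91 and adjusted p = 0.698 with sample 436). Gbe1, the glycogen branching enzyme, read 45.7 and 57.1 after freeze and 152, 226 and 276 after contraction, where the arrays lay about the controls at 141, 164 and 171 (-1.81 ± 0.27, adjusted p = 7.93e-05). Pdk4, the kinase that shuts pyruvate out of the TCA cycle, read 495 and 565 after freeze and 1788, 2124 and 913 after contraction, a difference of -1.50 ± 0.29 (adjusted p = 0.00106).

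For pairs of a muscle isoform and its widely expressed counterpart, picked out after their values were seen, directions were mixed. They were opposite for Cox6a2 and Cox6a1, for Pgam2 and Pgam1 and for Slc25a4 and Slc25a5, while Cox7a1 and Cox7a2 were both lower after freeze. Cox6a2, the heart and muscle form of a cytochrome oxidase subunit, read 1870.0 and 1876 after freeze and 7009, 7573 and 8076 after contraction, a difference of -2.00 ± 0.23 (adjusted p = 9.39e-06; -0.99 and adjusted p = 0.67 with sample 436). Cox6a1, the form of other tissues, read 1799 and 1747 after freeze and 1353, 852 and 984 after contraction, a difference of 0.76 ± 0.24 (adjusted p = 0.0306), which was not called without any 1 of samples 449, 467, 450 or 468. Pgam2, muscle phosphoglycerate mutase, read 1014 and 1088 after freeze, 1948, 3630.1 and 3361 after contraction and 6203, 7540.0 and 7522 in controls, a difference of -1.44 ± 0.24 (adjusted p = 0.0002). Pgam1, the form of most other tissues, read 943 and 940.0 after freeze, 430.0, 241 and 242 after contraction and 112, 94 and 189 in controls, a difference of 1.64 ± 0.30 (adjusted p = 0.000562). The freeze arrays were the highest group for Pgam1 and the lowest for Pgam2. The most negative difference of the respiratory genes was that of Cox7a1, another muscle form of a cytochrome oxidase subunit, with 144 and 128 after freeze and 391, 1314 and 872 after contraction (-2.39 ± 0.37, adjusted p = 0.000106; -1.11 and adjusted p = 0.748 with sample 436). Cox7a2, its form in other tissues, was lower as well, with 1332 and 1161 after freeze and 1753, 2069.6 and 2037 after contraction (-0.64 ± 0.22, adjusted p = 0.0441, not called without any 1 of samples 449, 467, 450 or 468). Slc25a4, the ADP/ATP carrier of muscle and heart, differed by -1.09 ± 0.23 (adjusted p = 0.00166) and Slc25a5, a carrier of many tissues, by 0.87 ± 0.30 (adjusted p = 0.0453). The call of Slc25a5 was lost without any 1 of the 5 arrays, and its 2 dimmer probe sets differed by -1.07 and 0.11 and were not called. Cox8b, also a muscle form of such a subunit, differed by -1.91 ± 0.24 (adjusted p = 1.7e-05).

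Part of the genes of new fibres were higher after freeze. Of 22 tested embryonic and regenerating fibre genes 8 were higher and 2, Des and Chrnb1, lower (median 0.30; 4 higher without sample 450; 1 lower without any 1 of 467, 450 and 468; 1 lower and none higher with sample 436). Myh3, embryonic myosin heavy chain, read 432 and 538 after freeze, 106, 86.5 and 60 after contraction and 4.6, 1.1 and 19.7 in controls, a difference of 2.38 ± 0.36 (adjusted p = 0.000106; 0.93 and adjusted p = 0.833 with sample 436). It was above control after both injuries. Tnnt2, the cardiac troponin T that regenerating fibres express, read 347 and 389 after freeze and 116, 70.1 and 102 after contraction, a difference of 1.83 ± 0.28 (adjusted p = 0.000103). Myl4, the embryonic myosin light chain, read 736 and 836 after freeze and 381, 190.5 and 241 after contraction, a difference of 1.55 ± 0.31 (adjusted p = 0.00115); another probe set differed by -0.10 and was not called. Mest, an imprinted gene of growing tissue, differed by 1.85 ± 0.40 (adjusted p = 0.00234). The neonatal myosin Myh8 was not called (0.47 ± 0.31, adjusted p = 0.333).

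The slow fibre list was split, with 5 of 16 tested genes higher and 4 lower (median -0.14; 3 higher without sample 467, 2 without 450 or 468; 2 lower without 468; none higher and 2 lower with sample 436). The higher ones were Myl4, Tnnt2, Tnnt1, Tnnc1 and Tnni1, and the lower ones Csrp3, Myl3, Myh7 and Mb, which encodes myoglobin. Myl4, Tnnt2 and Tnni1 were also counted with the embryonic fibre genes. Myh7, slow myosin, read 76.7 and 48.3 after freeze, 172, 378 and 123 after contraction and 136, 104 and 129 in controls (-1.53 ± 0.33, adjusted p = 0.00239, not called without sample 468 or on its dimmer probe set, at -0.52). The myogenic and satellite cell regulators were also split, with 4 of 25 higher, Vcam1 and the inhibitors of differentiation Id1, Id2 and Id3, and 6 lower (median 0.02; 1 higher without sample 449 and none without 450 or 468; 3 lower without 450; none higher and 3 lower with sample 436). Myf6, the myogenic factor of mature fibres, read 163 and 222 after freeze, 375 on sample 436, 793, 539 and 1335 after contraction and 414, 364 and 211 in controls. It was above control after contraction and not called against control after freeze, and its difference was -2.05 ± 0.35 (adjusted p = 0.000266). Myod1 and Myog, which act earlier in differentiation, were above control after both injuries. Myod1 read 1399.5 and 1572 after freeze and 980.5, 558 and 1291 after contraction (0.73 ± 0.30, adjusted p = 0.104), and Myog read 2240.0 and 1797 and 1382, 528 and 1616 (0.91 ± 0.32, adjusted p = 0.0536; -0.22 with sample 436).

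Dividing-cell genes were higher after freeze in part, where 9.67% of all genes tested were higher. Of 47 tested cell cycle and mitosis genes 11 were higher and none lower (median 0.73; 5 without sample 449, 7 without 467, 1 without 450, 3 without 468). Of 41 tested DNA replication and nucleotide synthesis genes 9 were higher and none lower (median 0.60; 4 without sample 450, 3 without 468). With sample 436 none of either was called. Cdkn1c, a cyclin-dependent kinase inhibitor, read 787 and 805 after freeze and 334, 372 and 253 after contraction, a difference of 1.30 ± 0.25 (adjusted p = 0.000869). Prim2, a primase subunit, read 46.7 and 50.2 after freeze and 1.9, 5.8 and 6.1 after contraction, both dim, a difference of 1.81 ± 0.32 (adjusted p = 0.000399). A gene this dim may have entered the test only through its freeze arrays. Cdk1, the mitotic kinase, read 338 and 328 after freeze and 202, 137 and 142 after contraction, and missed the threshold (1.02 ± 0.37, adjusted p = 0.0652).

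Of 33 tested proteasome genes 2 were higher and 5 lower (median -0.34; 2 lower without sample 467 or 450, 1 without 468; none of either with sample 436). The lower ones were the constitutive Psmb1, Psmb4, Psmb7, Psmd7 and Psmd12. The 2 higher were Psmb10 and Psme1, parts of the immunoproteasome and of its activator, which interferon gamma induces. Psme1 read 550.1 and 577 after freeze, 222, 209 and 249 after contraction and 305, 301 and 179 in controls, a difference of 1.27 ± 0.19 (adjusted p = 0.000104). Psmb10 differed by 1.24 ± 0.27 (adjusted p = 0.0024), and Psmb8, another subunit of this form that was counted with the interferon genes, by 1.76 ± 0.32 (adjusted p = 0.000461). Psmb1, a constitutive subunit, read 443 and 471 after freeze and 689, 929 and 952 after contraction, a difference of -0.87 ± 0.18 (adjusted p = 0.00131); its other probe sets differed by -0.37 and -0.60 and were not called. Ribosomal protein genes and nucleolar genes had few calls, with 2 higher and 1 lower of 26 (median 0.12) and 3 higher and 1 lower of 30 (median 0.07), and none with sample 436. The shares over all genes tested were 9.67% higher and 8.95% lower. The higher ribosomal genes were Rpl13a and Rps13 (1 without sample 449 or 468, none without 450) and the lower one Rps29 (none without 450). The higher nucleolar genes were Fbl, Npm1 and Imp4 (1 without 449 or 450, none without 468) and the lower one Bysl (3 lower without 449).

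Of 40 tested growth factor, activin and IGF system genes 5 were higher and 4 lower, with Bmp5 and Igfbp2 among the higher and Fgf1, Hbegf and Vegfb among the lower (median 0.04; 3 higher without sample 468; 2 lower without 449 and 1 without 450; none of either with sample 436). Over all genes tested 9.67% were higher and 8.95% lower. Sfrp2, a secreted modulator of Wnt signalling, read 1157 and 944 after freeze, 11.6 on sample 436, 91.3, 113 and 101 after contraction and 61.1, 43.4 and 49.3 in controls. The contraction arrays stood slightly above the controls and the freeze arrays far above both. The difference was 3.21 ± 0.24 (adjusted p = 3.08e-08; 1.40 and adjusted p = 0.744 with sample 436). Tgfb1, transforming growth factor beta 1, read 794 and 1019 after freeze, 208, 95.9 and 92.1 after contraction and 8.9, 9.6 and 9.3 in controls, a difference of 2.74 ± 0.50 (adjusted p = 0.000546; 0.92 and adjusted p = 0.874 with sample 436). Fgfr4, a fibroblast growth factor receptor of myoblasts, read 137 and 136 after freeze and 37.5, 24 and 9.5 after contraction, a difference of 2.10 ± 0.36 (adjusted p = 0.000276). Egf, epidermal growth factor, was lower, with 38.7 and 52.7 after freeze, 154, 370.2 and 248 after contraction and 272, 368 and 477 in controls (-2.13 ± 0.28, adjusted p = 2.12e-05).

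Matrix genes were higher in a minority at this time, where 9.67% of all genes tested were higher. Of 21 tested fibrillar collagen genes 5 were higher (median 0.70; 2 without sample 468), of 23 matricellular genes 5 (median 0.57; 1 without any 1 of samples 467, 450 and 468), of 18 basement membrane genes 3 (median 0.27; 1 without 450 or 468) and of 22 matrix protease genes 3 (median 0.43; 5 without 467 and 1 without 450). None of these lists had a lower gene by the probe set used, and none had a call with sample 436. Serpinh1, the chaperone of collagen folding, read 1546 and 1794 after freeze, 676, 572 and 584 after contraction and 216, 320.1 and 192 in controls, a difference of 1.43 ± 0.31 (adjusted p = 0.00229; 0.45 and adjusted p = 0.896 with sample 436). Tgfbi, a matrix protein induced by transforming growth factor beta, read 776 and 771 after freeze and 380.4, 218 and 230.0 after contraction, a difference of 1.49 ± 0.29 (adjusted p = 0.000957). Adam19, a membrane metalloprotease, differed by 1.57 ± 0.35 (adjusted p = 0.0028). Col1a1, the main chain of type I collagen, read 4034 and 5064 after freeze and 2254, 1751 and 1816 after contraction and was not called (1.22 ± 0.44, adjusted p = 0.0588; -0.37 with sample 436). Mmp12, a macrophage elastase, was the gene of these lists with the most negative value, 334 and 323 after freeze against 1341, 512 and 823 after contraction (-1.30 ± 0.57, adjusted p = 0.126). Its other probe set was called lower, at -1.27 (adjusted p = 0.043).

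Stress genes outside the heat shock list had no common direction. Among all genes tested, 9.67% were higher and 8.95% lower. Of 25 tested antioxidant and metal response genes 3 were higher and 8 lower (median -0.40; 4 lower without sample 449 or 467 and 2 without 450 or 468; with sample 436 Gpx3 alone was called). Gpx3, the secreted glutathione peroxidase, read 1009 and 1069.8 after freeze, 1009 on sample 436, 352, 377 and 636 after contraction and 892, 892 and 818 in controls. Here the freeze arrays were just over the controls, with no call, and the contraction arrays below them, by -0.96 ± 0.21 (adjusted p = 0.00157). The difference was 1.22 ± 0.23 (adjusted p = 0.000813; 0.0131 with sample 436). Hmox1, heme oxygenase 1, read 1695 and 1652 after freeze, 803, 519 and 665 after contraction and 401, 272 and 356 in controls, a difference of 1.34 ± 0.25 (adjusted p = 0.000548). Of 21 endoplasmic reticulum stress genes 6 were higher and 1, Atf4, lower (median 0.29; 2 higher without sample 450 or 468; none lower without 449 or 468; none of either with sample 436). Of 36 immediate early and stress transcription factors 3 were lower, Nr4a1, Klf9 and Dusp1, and none higher (median -0.14; 1 lower without 450, none with 436). Klf9, a Krüppel-like factor, read 251 and 309 after freeze, 549.9, 720.2 and 662 after contraction and 1275, 1021 and 1329.8 in controls, a difference of -1.16 ± 0.18 (adjusted p = 9.54e-05); its dimmer probe set differed by -0.83 and was not called. Atf3, a stress-induced transcription factor above control after both injuries, read 417 and 419 after freeze and 564, 1036 and 836 after contraction (-0.90 ± 0.33, adjusted p = 0.0675).

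Markers of other cells the muscle could hold ranged from no call to 8 of 15 genes called, against 18.6% of all genes tested. No gene was called on the neutrophil list (12 tested, median 0.14), the lymphocyte list (12, 0.12), the tendon, cartilage and bone list (11, -0.20) or the erythroid and platelet list (10, -0.36). S100a8, a calcium-binding protein of neutrophils, read 136 and 63.6 after freeze and 32.4, 45.8 and 39.3 after contraction (1.04 ± 0.68, adjusted p = 0.333). By limma's unadjusted p under 0.05 the numbers on these 4 lists were 0, 1, 3 and 1. On the other marker lists below, no gene but Des was called with sample 436. Of 23 endothelial markers Cd93 was higher and Flt1 and Tie1 lower (median 0.11), but without sample 449, 450 or 468 none was called, without 467 none was higher and without 435 there were 2 higher. Of 11 Schwann cell and nerve markers Erbb3 was higher (none without 449 or 468) and Sox10 lower (none with any 1 array left out). Of 11 epithelial markers Krt18 was lower, with the losses given above (2 genes of the list without 449). Of 15 fibroblast markers S100a4 and Gas1 were higher (1 without 449 or 450). Of 15 smooth muscle markers 5 were higher, Acta2, Actn1, Tpm4, Tagln2 and Cnn2 (3 without 449, 2 without 467, none without 450 and 1 without 468), and Tpm2, Des and Pdlim7, which skeletal fibres also express, were lower. Of 14 adipocyte markers Cebpa and Plin2 were higher and Car3, Slc2a4 and Pnpla2 lower (1 lower without 450). Of the summed signals, that of fibroblast markers was 4517 and 4669 on the freeze arrays and 2693 to 3272 after contraction, and that of endothelial markers 4975 and 5170 against 3806 to 4642. Plin2, which coats lipid droplets in macrophages as well as fat cells, differed by 1.99 ± 0.26 (adjusted p = 2.12e-05). Car3, a carbonic anhydrase of muscle and fat, differed by -1.72 ± 0.23 (adjusted p = 2.6e-05).

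Set against the same 3 controls, the medians of both injuries had the same sign for 35 of the 40 lists, and in 29 of these the median after freeze was the larger in size. The median over macrophage markers was 3.98 after freeze and 2.22 after contraction, and that over interferon-induced genes 2.60 and 0.80. Fast sarcomere genes had a median of -2.05 after freeze and -0.68 after contraction, genes of glycolysis and glycogen -2.05 and -1.29, and respiratory chain genes -1.64 and -0.72. Heat shock genes had a median of -0.12 after freeze and 0.45 after contraction, and strain and repair genes -0.15 and 0.61. Proteasome genes had 0.16 after freeze and 0.43 after contraction. Over all genes tested the medians were -0.10 and -0.05. The comparisons share their controls, so these medians are not independent of each other.

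**Figure D4:**
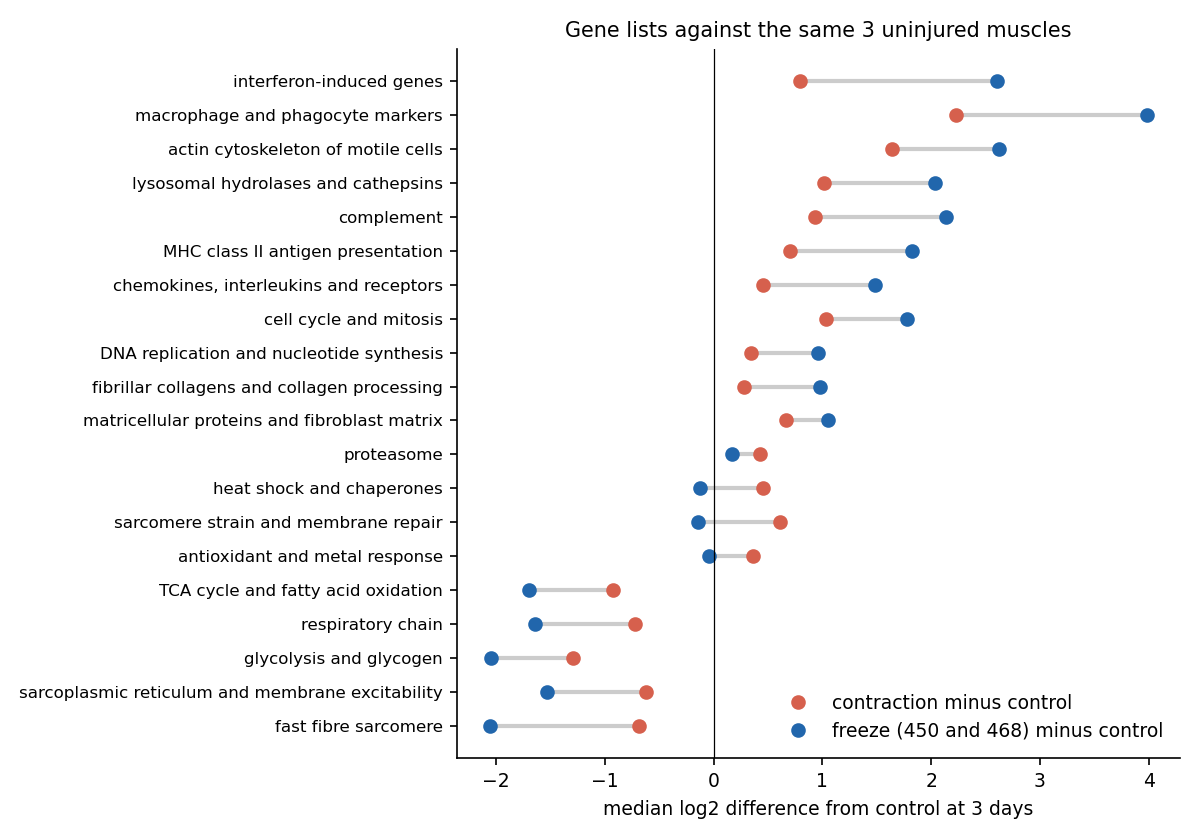
Median log2 difference from the same 3 uninjured muscles (horizontal axis) for 20 gene lists after freeze (blue, samples 450 and 468) and after contraction (red) at 3 days; a grey line joins the values of a list. Blue lies beyond red in the same direction for most lists, while for heat shock, strain and antioxidant genes red lies above 0 and blue slightly below it, and for proteasome genes both lie above 0 with red higher.

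The reading with sample 436 called 31 genes. Of these, 27 were lower after freeze, and of the 27, samples 450 and 468 had 13 not called against control, 4 above it and the rest below it. Among the 27, whatever their relation to control, were Hspa1a, Hspa1b, Csrp3, Xirp1, Ankrd2, Rgcc, Myf6, Cryab, Ankrd1, Hspb8, Rcan1, Cacng1 and Myh7. The 4 higher genes were Smpdl3a, Gpx3, Creg1 and Pla2g7, of which Smpdl3a, Creg1 and Pla2g7 were picked out after their values were seen. Creg1, a secreted glycoprotein of the endosome, read 348 and 324 on samples 450 and 468, 179 on sample 436, 120.1, 114 and 119 after contraction and 121, 164 and 164 in controls. Its difference was 1.42 ± 0.20 without sample 436 and 1.13 with it (adjusted p = 5.25e-05 and 0.0201). Pla2g7, a phospholipase that cuts platelet-activating factor, read 341 and 266, 205 on sample 436, and 102, 91.7 and 62.3 after contraction, a difference of 1.70 ± 0.27 and 1.52 in turn. Smpdl3a, an acid sphingomyelinase-like enzyme, differed by 0.73 ± 0.17 and 0.86, and was not called in the main reading without sample 468.

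At the neighbouring times, part of the difference was present. Of the 669 genes higher after freeze at 3 days, 245 were also higher at 1 day and 256 at 7 days, where 473 and 418 of all genes tested were (6.84% and 6.04%). Of the 619 lower genes, 127 were lower at 1 day and 89 at 7 days, against 275 and 133 of all genes (3.97% and 1.92%). The median difference of the higher genes was 1.17 at 3 days, 0.63 at 1 day and 0.74 at 7 days, and that of the lower genes -0.96, -0.43 and -0.42. Genes were chosen on the 3-day values, so a smaller median at the other times is partly set by that choice. The difference at 3 days itself differed from that at 1 day in 128 genes (1.85%) and from that at 7 days in 47 genes (0.679%), by limma's test of the difference between differences. Contraction at 1 day and freeze at 7 days had 2 arrays each, and both other groups had 3. These counts moved by over 1.5 times with single arrays left out, by probe set from 158 to between 29 and 170 for 1 day and from 55 to between 8 and 89 for 7 days.

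Heat shock genes were already apart at 1 day. Hspa1a differed by -5.28 ± 0.60 at 1 day, -4.37 ± 0.60 at 3 days and -0.03 ± 0.60 at 7 days, and Cryab by -1.02 ± 0.26, -2.02 ± 0.26 and -0.32 ± 0.26. Of the 30 heat shock genes 15 were lower after freeze at 1 day, 8 at 3 days and none at 7 days, and 0, 1 and 1 were higher. Strain genes were apart at both early times. Csrp3 differed by -2.24 ± 0.33 at 1 day, -2.65 ± 0.33 at 3 days and 1.25 ± 0.33 at 7 days, and its value at 3 days differed from that at 7 days by -3.90 ± 0.47 (adjusted p = 0.000112). Of the 22 genes of that list 10 were lower after freeze at 1 day, 11 at 3 days and none at 7 days, while 5, 2 and 6 were higher in turn. Interferon-induced genes higher after freeze numbered 9 of 29 at 1 day, 25 at 3 days and 14 at 7 days, with medians of 0.80, 1.76 and 1.09. Matricellular genes higher after freeze numbered 4 of 23 at 1 day, 5 at 3 days and 16 at 7 days (1 lower at 1 day), with medians of 0.20, 0.57 and 1.41. Of the fibrillar collagen genes 0, 5 and 13 of 21 were higher in turn. Such counts do not test a change between times. By the test of the difference between differences, 4 interferon-induced genes differed from 1 day and 0 from 7 days. Of matricellular genes 1 differed from 1 day and 2 from 7 days, and of fibrillar collagen genes 2 and 2. Of heat shock genes 4 and 3 differed in turn, and of strain genes 1 and 6. Over all genes tested the shares were 1.85% and 0.679%.

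**Figure D5:**
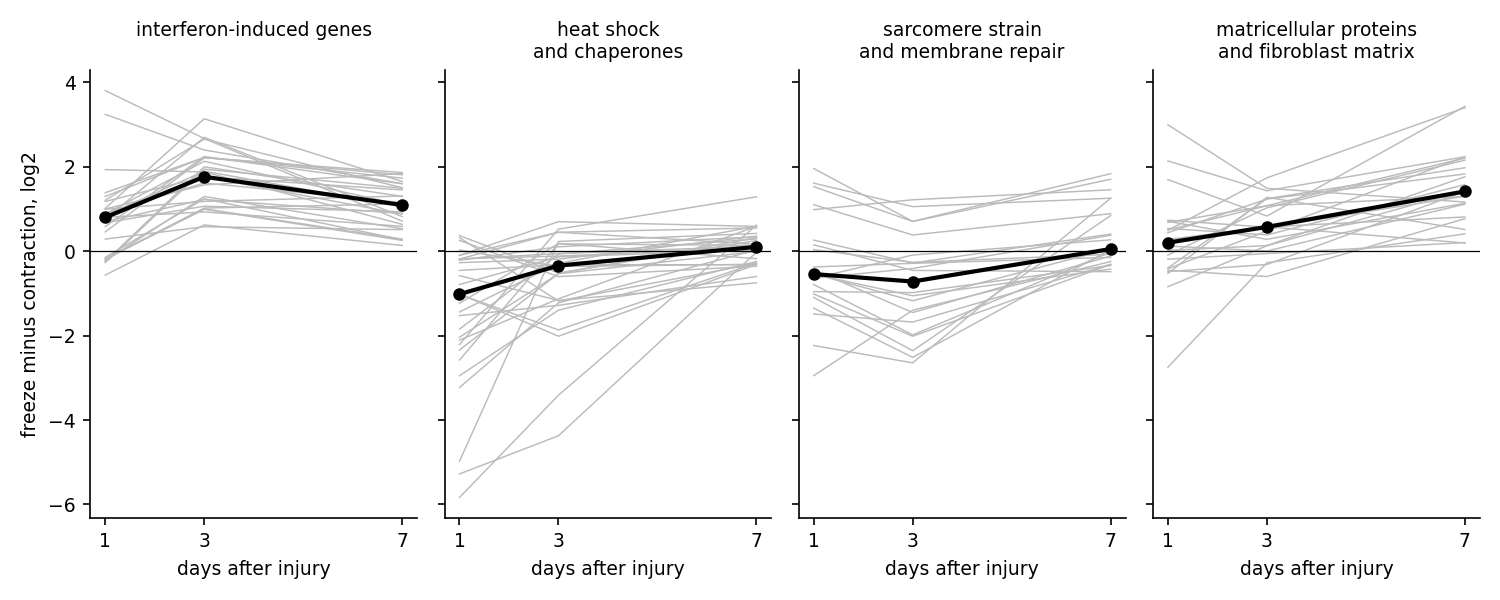
Difference between the injuries (vertical axis, log2, freeze minus contraction) at 1, 3 and 7 days (horizontal axis, days to scale) for the tested genes of 4 lists. Each grey line is a gene and the black line is the median, which for interferon-induced genes was 0.80, 1.76 and 1.09, and for heat shock genes -1.02, -0.34 and 0.10.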

How the data were processed

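RNA of whole tibialis anterior muscle was measured on Affymetrix U74Av2 arrays, 1 array per sample, and the authors deposited linear intensity signals made with MAS5, per the submitters' processing notes; their trimmed means were 150.09 to 150.13, so the arrays had been scaled to 1 level before deposit. Values were read as log2(signal + 13), the pseudocount being at the 19.9th percentile of all signals. A probe set was tested if at least 2 of the 25 arrays had it over their own 40th percentile, which 9506 of 12488 did (66 control probe sets left out). The main reading also has 2 freeze arrays, so a gene dim elsewhere could enter the test through them alone. Without this filter 1539 of 12422 probe sets were called between the injuries, 821 higher and 718 lower after freeze. Gene names came from the platform table, in which 10855 probe sets had 1 symbol, 396 several and 1237 none. A gene was read by its tested probe set with the highest mean, giving 6919 genes.

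limma 3.58.1 (R 4.3.3; lmFit, eBayes with a trend) was fitted with 1 mean per group to 24 arrays, that is all but sample 436, and again to all 25. P-values were adjusted by Benjamini and Hochberg over all tested probe sets and called under 0.05. The fit had 15 residual degrees of freedom and a residual SD of 0.323. Scripts were tested on simulated data. The number of arrays limits the precision. No pair of arrays had more than 0.488% of values identical.

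The part studied, the 40 gene lists (1237 genes, 940 tested) and the tests were chosen with earlier results of these data known. The lists held 1279 entries for these 1237 genes, because some genes were on more than 1 list. Genes named with values were drawn from the 12 highest and 12 lowest genes, of each list its representatives and 3 highest and 3 lowest members, and 5 genes for each test between times. Not all of these are printed, as 107 genes carry a value. Left out were, among others, the lowest macrophage markers Cd14 (0.26), Fcgr3 (0.28) and Itgax (0.36). Others left out were Cd55 of the complement list (-0.78) and Mki67 of the cell cycle list (-0.39), none of these 5 called. Hspb8, Ifit1, Usp18, Psmb8, Cox7a2, Smpdl3a, Creg1 and Pla2g7, and those members of short counts that carry no value, were added after their values were seen. Of 330 genes that could be named, 75 had several probe sets. Of these, 2 had calls in both directions and 34 had calls on only part of their probe sets. Alternatives were other pseudocounts, filters, scalings, thresholds, array weights, blocks and single arrays left out.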

Additional observations from a re-analysis of the deposited data

Results flagged for a closer look

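The difference between the injuries at 3 days was tested against that at 1 day and at 7 days with limma, and the 5 genes with the smallest p in each test were taken from those called at 3 days. Contraction at 1 day and freeze at 7 days had 2 arrays each. All values are freeze minus contraction on the log2 scale, and the last of each is the difference between the times. Against 1 day, Hk2 had -1.95 at 3 days and 0.56 at 1 day, apart by -2.51 ± 0.29 (adjusted p = 5.49e-05). Sfrp2 had 3.21 and 0.26, apart by 2.95 ± 0.34 (adjusted p = 5.49e-05). Clip4 had -2.25 and -0.02, apart by -2.23 ± 0.27 (adjusted p = 7.48e-05). Odc1, ornithine decarboxylase of polyamine synthesis, had -1.24 and 0.86, apart by -2.10 ± 0.25 (adjusted p = 6.75e-05). Retreg1, a receptor for autophagy of the endoplasmic reticulum, had -1.71 and 0.47, apart by -2.18 ± 0.30 (adjusted p = 0.000342). Hk2, Odc1 and Retreg1 thus had opposite signs at the 2 times. Against 7 days, Csrp3 had -2.65 at 3 days and 1.25 at 7 days, apart by -3.90 ± 0.47 (adjusted p = 0.000112). Xirp1 had -2.52 and 0.04, apart by -2.56 ± 0.30 (adjusted p = 0.000112). Amot, angiomotin, had -1.94 and 0.12, apart by -2.05 ± 0.29 (adjusted p = 0.000799), and Rcan1 -1.77 and 0.14, apart by -1.91 ± 0.31 (adjusted p = 0.00565). Atp13a2, a lysosomal transport ATPase, had 1.56 and 0.18, apart by 1.38 ± 0.24 (adjusted p = 0.00603). These genes were selected for a small p, so the sizes may be overstated.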

How the results depend on the processing

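By probe set, 1611 were called between the injuries (841 higher and 770 lower after freeze), 4029 between freeze and control, 2163 between contraction and control, and 158 and 55 for the 3-day difference against that at 1 and 7 days. With sample 436 these were 37 (4 and 33), 1698, 784, 31 and 13. With sample 436 and only the groups compared they were 0 (0 and 0; limma, 351 at an unadjusted p under 0.05), 0 for freeze against control (limma, 1328 unadjusted), 1215, 4 and 3. With only the groups compared and without sample 436, there were 1435 between the injuries (860 and 575), 1215 for contraction against control and 34 for the 7-day test. Array weights gave 2656 (1396 and 1260), 307 for 1 day and 270 for 7 days. At an adjusted p under 0.01 there were 916 (491 and 425), 1289 for contraction against control, 38 and 18, and at 0.05 with at least a 2-fold change 928 (559 and 369) and 1070 for contraction against control. The 7-day test gave 30 with median centring (46.7% higher, against 25.5%), 26 without the trend, 94 with a pseudocount of 50 and 113 with quantile normalization. Leaving out 1 array gave 743 to 1793 calls between the injuries (389 to 918 higher, 354 to 875 lower), 2923 to 3898 and 1487 to 2167 against control, 29 to 170 for 1 day and 8 to 89 for 7 days. With sample 436 added, the residual SD was 0.385 against 0.323, and this pooled spread enters the test of every comparison. The differences of contraction from control do not use sample 436, and their median was -0.060 in both fits. Beyond this, the cause of the changes was not tested. No fit with the replicate number as a block was possible because the groups share no replicate numbers. Adjacent sample numbers, which the labels do not tie to a mouse, gave 1558 calls as a random block (block correlation -0.029).

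Of 107 genes printed with a value, 91 were called. Of these, 84 kept the call in each of 17 settings that tested them, the other 7 being Cox6a1, Cox7a2, Cx3cl1, Krt18, Myh7, Slc25a5 and Smpdl3a. One of the 17, the stricter filter, did not test all of the 107. There 96 were read as in the main fit, 2 gained a call and the rest were not tested. Those 17 leave out the settings with sample 436, where 18 of the 91 kept it, the fit to only the groups compared without it (88), an adjusted p under 0.01 (87) and the 2-fold minimum (85). The sign reversed with sample 436 for C1qb (-0.42), Csf1r (-0.28), Ccl2 (-0.55), Lgals3 (-1.44), Mrc1 (-0.74), Arg1 (-0.064), Col1a1 (-0.37), Myog (-0.22) and Myh4 (0.077). Dim signals limit what can be read of genes near the floor of the array, such as Prim2, Cxcl9 and Ccl5 outside the freeze arrays.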
